A study of Mus musculus with 6 samples.

Results

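The genes for iron handling and oxidant defense examined here were *Fth1*, *Ftl1*, *Tfrc*, *Slc11a1*, *Slc40a1*, *Hmox1*, *Slc7a11*, *Gclm*, *Nqo1* and *Sod2*. They were chosen by name, with earlier results of these data known, and are 10 of the 24346 gene symbols measured. All 10 were compared between JAK inhibitor-treated and vehicle-treated mice. RNA-Seq was performed on CX3CR1-EGFP+ osteoclast precursors sorted from the calvarial bone marrow of 6 CX3CR1-EGFP knock-in mice, in which the reporter marks monocyte-lineage cells. All 6 mice had been injected with LPS (lipopolysaccharide, 20 mg/kg) at the calvarial periosteum, so there was no LPS-free group. For 5 days, 3 mice were given the selective JAK1 inhibitor ABT-317 (60 mg/kg by mouth, 2 doses per day) and 3 were given vehicle, hydroxypropyl methylcellulose with Tween 80. The age of these mice was not given in the sources used here.

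Values are FPKM (fragments scaled to transcript length and library size), and they summed to between 688400 and 775800 per mouse. The depth of the libraries is unknown, because read counts were not used here. Differences are JAK inhibitor minus vehicle on the log2(FPKM + 1) scale, tested with limma over the 11301 genes that reached an FPKM of 1 in any of the mice. The limma p-values rest on the spread between 3 mice per group, drawn toward the trend of this spread over all tested genes. Fewer cells of a type cannot be told apart from less RNA per cell. Transcripts from the monocyte marker list were abundant in every mouse: *Lyz2*, which encodes lysozyme, was at 23900 to 32890 FPKM. Those from the neutrophil marker list, among them *S100a8* and *Mpo*, were also abundant. They summed to 17120 to 23220 FPKM in vehicle-treated and 17240 to 24370 FPKM in JAK inhibitor-treated mice. Which cells made these transcripts was not tested. Markers of B, T and NK cells summed to at most 4.29 FPKM.

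Iron enters cells bound to transferrin, is stored inside the ferritin shell and leaves through ferroportin. Macrophages of the bone marrow also recover iron from heme, and they hold iron back during inflammation. Free iron promotes oxidative damage, and cells counter it with glutathione, quinone reductases and superoxide dismutases. Osteoclast precursors belong to the same monocyte/macrophage lineage.

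Among the 10 genes, *Sod2*, *Nqo1* and *Fth1* were lower in all 3 JAK inhibitor-treated mice than in any vehicle-treated mouse. Their differences were -1.13 for *Sod2*, -0.77 for *Nqo1* and -0.67 for *Fth1*. Ferroportin (*Slc40a1*) was the only gene of the 10 with a higher estimate in JAK inhibitor-treated mice, at 0.04, a sign that turned with housekeeping scaling (-0.03). None of the 10 passed an adjusted p of 0.05 in limma, whereas 3 had an unadjusted p under 0.05, all of them lower. Of these, *Nqo1* reached 1 FPKM only in vehicle-treated mice, so the filter partly set its direction. Of the 8 genes with at least 1 FPKM in every mouse, 2 were lower at an unadjusted p under 0.05, against 9.66% of the 9601 such genes. Over all tested genes, 0.133% passed the adjusted threshold, 9.4% were lower at an unadjusted p under 0.05 and 6.57% were higher. The groups were separate, with no overlap, for 12.1% of all tested genes in the lower direction and for 9.92% in the higher direction. The exact 2-sided permutation p was 0.1 for *Sod2*, *Nqo1* and *Fth1*, the smallest that 3 against 3 mice allow, and 0.2 to 0.9 for the other 7. When each library was scaled to housekeeping genes, 73.6% of the genes with an unadjusted p under 0.05 were lower, against 58.9% without this scaling and 50.8% after quantile normalization.

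**Figure D1:**
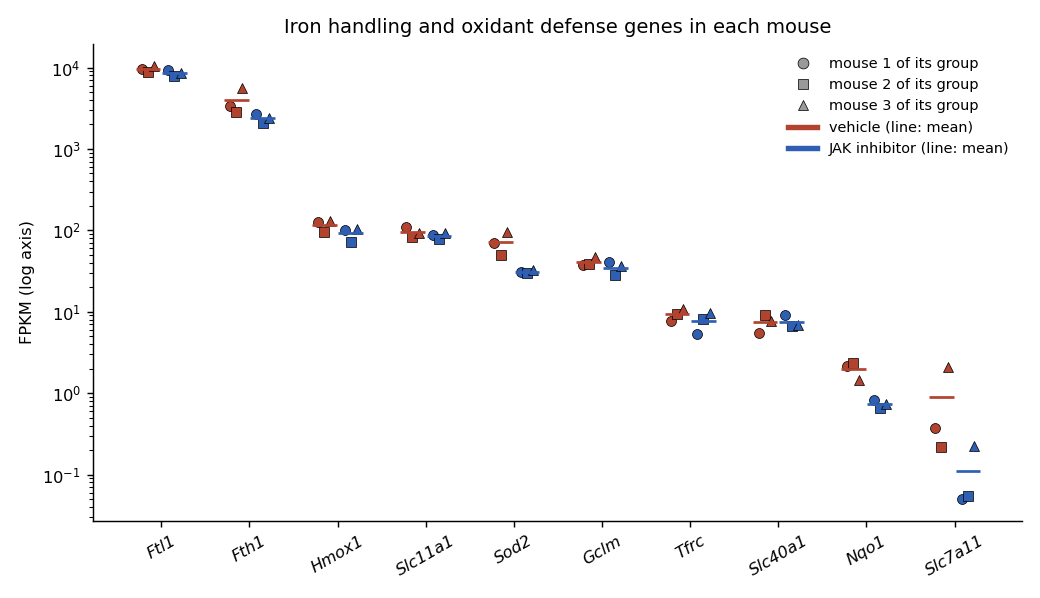
FPKM on a log axis for each of the 10 genes, with 1 point per mouse (3 vehicle-treated and 3 JAK inhibitor-treated) and a line at each group mean. *Ftl1* and *Fth1* lie above all the others, *Slc7a11* lies below 1 in 5 mice, and the groups are separate for *Fth1*, *Sod2* and *Nqo1*.

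The levels of the 10 genes covered 4 ranges. The ferritin light chain *Ftl1* had the highest mean over the 6 mice, 9111 FPKM, followed by the heavy chain *Fth1* at 3180 FPKM. *Hmox1* (105 FPKM), *Slc11a1* (90.4 FPKM), *Sod2* (51.4 FPKM) and *Gclm* (38.1 FPKM) came next. *Tfrc* and *Slc40a1* were at 8.53 and 7.48 FPKM, and *Nqo1* and *Slc7a11* were at 1.37 and 0.50 FPKM. Each gene was above the next in this order in all 6 mice for *Ftl1*, *Fth1*, *Gclm* and *Slc40a1*, and in 5 mice for *Hmox1*, *Slc11a1*, *Tfrc* and *Nqo1*. The order of *Sod2* and *Gclm* differed by group. For each FPKM of *Gclm* there were 1.86, 1.27 and 2.03 FPKM of *Sod2* in vehicle-treated mice 1 to 3 and 0.749, 1.07 and 0.905 FPKM in JAK inhibitor-treated mice 1 to 3, so *Sod2* was above *Gclm* in 3 vehicle-treated mice and in 1 JAK inhibitor-treated mouse.

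Translation of both ferritin chains and stability of the transferrin receptor mRNA are controlled through iron-responsive elements, hairpins bound by iron regulatory proteins. A search of GENCODE M21 transcripts (GRCm38) for a bulged C, 5 paired bases and the loop CAGTGN, with any base but G at the last position, found an element in 426 of 58797 coding transcripts (0.725%). It was found in 4 of 5 transcripts of *Fth1*, 1 of 2 of *Ftl1* and 1 of 3 of *Tfrc*, and in none of *Gclm*, *Nqo1*, *Slc11a1*, *Slc7a11* or *Sod2*. *Hmox1* and *Slc40a1* were not searched here, so the search does not list all members under such control. The elements found are shown because the values below are of mRNA, whereas these hairpins act after transcription. The first is in the 5′ UTR in exon 1 of *Fth1* (chr19:9982732-9982761, + strand), the second in the 5′ UTR in exon 1 of *Ftl1* (chr7:45459778-45459807, - strand), and the other 4 are in the 3′ UTR in exon 19 of *Tfrc*, on the + strand (chr16:32631219-32631248, chr16:32631598-32631627, chr16:32631663-32631692 and chr16:32631710-32631739). Capitals mark the loop.
Fth1 element: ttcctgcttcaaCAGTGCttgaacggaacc
Ftl1 element: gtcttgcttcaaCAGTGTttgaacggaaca
Tfrc element 1: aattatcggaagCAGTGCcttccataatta
Tfrc element 2: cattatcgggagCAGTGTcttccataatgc
Tfrc element 3: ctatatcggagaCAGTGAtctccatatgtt
Tfrc element 4: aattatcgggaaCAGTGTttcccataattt

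*Fth1* encodes the ferritin heavy chain, which oxidizes iron for storage, and lies at chr19:9980598-9985098 on the + strand. It was at 3401, 2859.96 and 5632 FPKM in vehicle-treated mice 1 to 3 and at 2679.6, 2085 and 2424 FPKM in JAK inhibitor-treated mice 1 to 3. The groups did not overlap, and vehicle-treated mouse 3 was far above the other vehicle-treated mice. The means were 3964 ± 1470 and 2396 ± 298 FPKM (SD, n = 3 per group). The difference was -0.67 (SE 0.22, 95% interval -1.18 to -0.17), with an unadjusted limma p of 0.0149 and an adjusted p of 0.202. Without vehicle-treated mouse 3 it was -0.39 (unadjusted limma p of 0.0115), and without JAK inhibitor-treated mouse 2 the unadjusted limma p was 0.056.

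*Ftl1* encodes the light chain, which helps form the iron core inside the shell, and lies at chr7:45457944-45459884 on the - strand. It was at 9511, 8773 and 10546 FPKM in vehicle-treated mice and at 9370.2, 7818 and 8647 FPKM in JAK inhibitor-treated mice. These ranges overlapped. The difference was -0.16 (SE 0.11, 95% interval -0.42 to 0.10), with an unadjusted limma p of 0.197 and an adjusted p of 0.535, and it had the opposite sign after quantile normalization, at 0.22 (unadjusted limma p of 0.0123 and adjusted p of 0.192). Both ferritin genes have processed copies in the genome. Of 14 copies looked for, 13 were not among the symbols in the tables, so reads shared with copies cannot be told apart and the levels of *Fth1* and *Ftl1* are uncertain. Together the 2 chains took 1.57 to 2.15% of the summed FPKM in vehicle-treated mice and 1.44 to 1.59% in JAK inhibitor-treated mice.

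The balance of the ferritin chains was computed within each mouse as the log2 ratio of *Fth1* to *Ftl1*. This ratio was -1.48, -1.62 and -0.90 in vehicle-treated mice and -1.81, -1.91 and -1.83 in JAK inhibitor-treated mice. All 3 JAK inhibitor-treated mice were below all 3 vehicle-treated mice. On the linear scale there were 2.80, 3.07 and 1.87 FPKM of *Ftl1* for each FPKM of *Fth1* in vehicle-treated mice, and 3.50, 3.75 and 3.57 in JAK inhibitor-treated mice. The means of the log2 ratio differed by -0.51 (exact 2-sided permutation p = 0.1, the smallest that 3 against 3 mice allow). Without vehicle-treated mouse 3 the difference was -0.30.

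**Figure D2:**
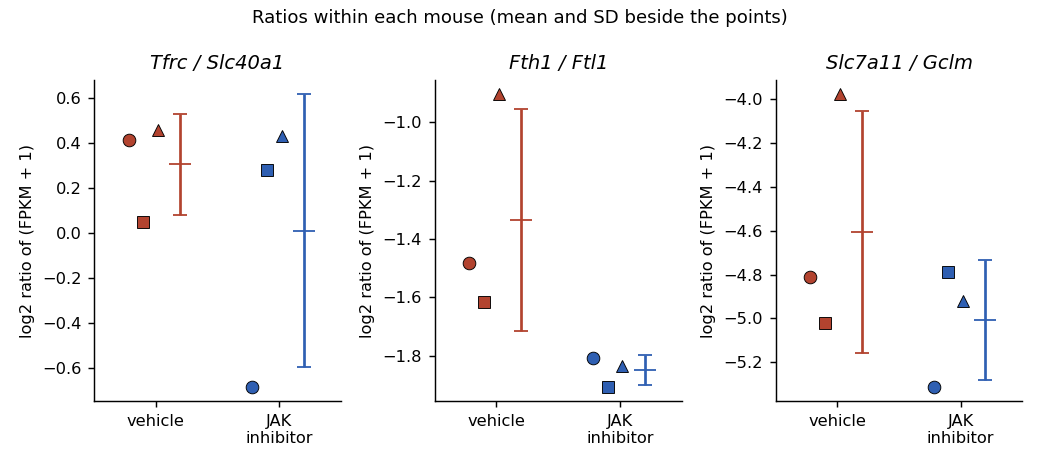
Log2 ratios of FPKM + 1 within each mouse for *Tfrc* to *Slc40a1*, *Fth1* to *Ftl1* and *Slc7a11* to *Gclm*, with 1 point per mouse (circle, square and triangle are mice 1, 2 and 3 of a group) and the mean and SD of each group beside the points. The groups are separate only for *Fth1* to *Ftl1*, where the JAK inhibitor-treated mice lie between -1.91 and -1.81.

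Values of the uptake gene *Tfrc* and of the export gene *Slc40a1* overlapped between the groups. *Tfrc* encodes transferrin receptor 1, the main route of iron uptake, and lies at chr16:32608920-32632794 on the + strand. It was at 7.65, 9.36 and 10.8 FPKM in vehicle-treated mice and at 5.31, 8.25 and 9.74 FPKM in JAK inhibitor-treated mice. JAK inhibitor-treated mouse 1 was the lowest of the 6 mice, and the other 2 of its group lay within the vehicle range. The difference was -0.25 (SE 0.22, 95% interval -0.74 to 0.24), with an unadjusted limma p of 0.271 and an adjusted p of 0.608, and it was -0.03 without JAK inhibitor-treated mouse 1.

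*Slc40a1* encodes ferroportin, the only known cellular iron exporter, and lies at chr1:45908068-45926523 on the - strand. It was at 5.499, 9.03 and 7.64 FPKM in vehicle-treated mice and at 9.15, 6.62 and 6.97 FPKM in JAK inhibitor-treated mice. The highest value was in JAK inhibitor-treated mouse 1 and the lowest in vehicle-treated mouse 1. The difference was 0.04 (SE 0.20, 95% interval -0.40 to 0.49), with an unadjusted limma p of 0.832 and an adjusted p of 0.943. Its sign turned with housekeeping scaling (-0.03) and without JAK inhibitor-treated mouse 1 or vehicle-treated mouse 1. The log2 ratio of *Tfrc* to *Slc40a1* was 0.30 ± 0.22 in vehicle-treated and 0.01 ± 0.61 in JAK inhibitor-treated mice (SD, n = 3 per group, exact 2-sided permutation p = 0.6).

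*Slc11a1* encodes NRAMP1, which moves iron and other divalent metals out of the phagosome, and lies at chr1:74375195-74386062 on the + strand. Its values were 109.7, 81.9 and 92.0 FPKM in vehicle-treated mice and 87.3, 78.5 and 92.9 FPKM in JAK inhibitor-treated mice. Only vehicle-treated mouse 1 stood above the other group. The difference was -0.12 (SE 0.12, 95% interval -0.40 to 0.15), with an unadjusted limma p of 0.340 and an adjusted p of 0.669.

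*Hmox1* encodes heme oxygenase 1, which breaks heme down and releases its iron, and lies at chr8:75093621-75100589 on the + strand. It was at 127.6, 95.3 and 129.3 FPKM in vehicle-treated mice and at 101.7, 71.6 and 104.2 FPKM in JAK inhibitor-treated mice. In each group mouse 2 was the lowest, and vehicle-treated mouse 2 lay below 2 of the JAK inhibitor-treated mice. The means were 117.4 ± 19.2 and 92.5 ± 18.1 FPKM (SD, n = 3 per group). The difference was -0.35 (SE 0.17, 95% interval -0.73 to 0.04), with an unadjusted limma p of 0.0705 and an adjusted p of 0.361. Without vehicle-treated mouse 2 it was -0.49 (unadjusted limma p of 0.0165), and without JAK inhibitor-treated mouse 2 it was -0.17 (unadjusted limma p of 0.273).

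**Figure D3:**
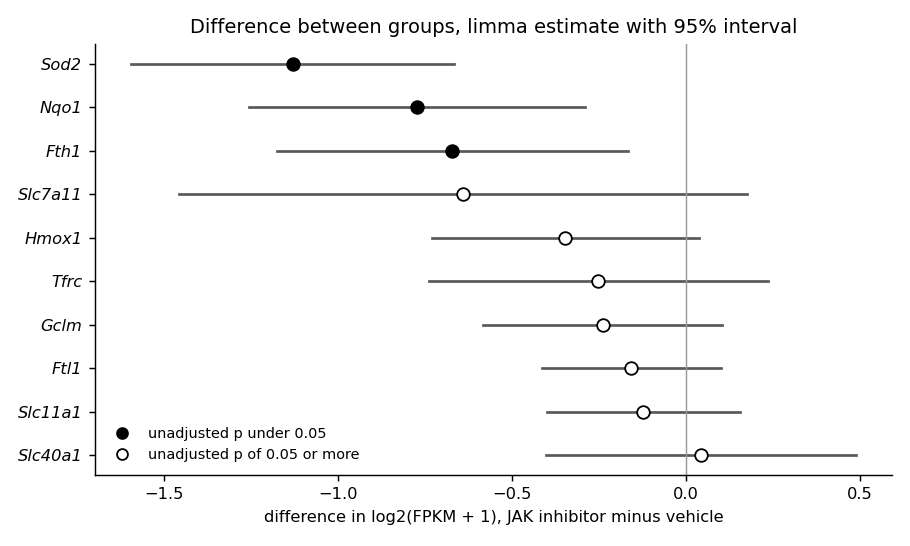
Difference in log2(FPKM + 1), JAK inhibitor minus vehicle, for each of the 10 genes, with the 95% interval of the limma estimate as a line; filled points have an unadjusted p under 0.05. The intervals of *Sod2*, *Nqo1* and *Fth1* lie below 0 and the other 7 cross it.

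For glutathione, the cystine importer gene *Slc7a11* and the synthesis gene *Gclm* were measured. *Slc7a11* encodes the subunit that carries cystine into the cell and lies at chr3:49892526-50443614 on the - strand. It was at 0.373, 0.22 and 2.075 FPKM in vehicle-treated mice and at 0.050, 0.055 and 0.225 FPKM in JAK inhibitor-treated mice. Vehicle-treated mouse 3 was the only mouse above 1 FPKM, and without it the gene was not tested. JAK inhibitor-treated mouse 3 was just above vehicle-treated mouse 2. The difference was -0.64 (SE 0.36, 95% interval -1.46 to 0.18), with an unadjusted limma p of 0.109 and an adjusted p of 0.428. A pseudocount of 0.1 in place of 1 gave -1.82. In the annotation 5 other genes overlap the span of *Slc7a11*, introns included, among them an antisense gene and 3 processed pseudogenes. Whether they overlap its exons was not tested, and the sources differ on whether the libraries kept the strand. It is therefore unknown whether any of their reads were counted for *Slc7a11*. The same holds for *Ftl1* and *Gclm*, as 2 other genes overlap the span of each.

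*Gclm* encodes the modifier subunit of glutamate-cysteine ligase, which makes the first step of glutathione synthesis more efficient, and lies at chr3:122245557-122270732 on the + strand. It was at 37.6, 38.7 and 47.4 FPKM in vehicle-treated mice and at 40.7, 28.1 and 36.1 FPKM in JAK inhibitor-treated mice. JAK inhibitor-treated mouse 1 lay above 2 of the vehicle-treated mice. The difference was -0.24 (SE 0.15, 95% interval -0.58 to 0.10), with an unadjusted limma p of 0.149 and an adjusted p of 0.485. The log2 ratio of *Slc7a11* to *Gclm* was -4.60 ± 0.55 in vehicle-treated and -5.01 ± 0.27 in JAK inhibitor-treated mice (SD, n = 3 per group, exact 2-sided permutation p = 0.5). The pseudocount set the size of this difference, which was -0.40 with a pseudocount of 1 and -1.57 with 0.1.

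*Nqo1* encodes a quinone reductase that keeps quinones from cycling into oxidants, and lies at chr8:107388225-107403206 on the - strand. It was at 2.18, 2.36 and 1.45 FPKM in vehicle-treated mice and at 0.823, 0.652 and 0.739 FPKM in JAK inhibitor-treated mice. The groups did not overlap, and all 3 JAK inhibitor-treated mice were below 1 FPKM, so *Nqo1* entered the test only through the vehicle-treated mice. The means were 1.996 ± 0.48 and 0.738 ± 0.086 FPKM (SD, n = 3 per group). The difference was -0.77 (SE 0.21, 95% interval -1.26 to -0.29), with an unadjusted limma p of 0.00552 and an adjusted p of 0.152. With a pseudocount of 0.1 it was -1.30, and with each mouse left out in turn it was between -0.91 and -0.68.

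*Sod2* encodes mitochondrial manganese superoxide dismutase, which turns superoxide into hydrogen peroxide and is known as a target of inflammatory signals, and lies at chr17:13006846-13040063 on the + strand. It was at 69.8, 49.1 and 96.1 FPKM in vehicle-treated mice and at 30.5, 30.02 and 32.6 FPKM in JAK inhibitor-treated mice. The vehicle-treated mice differed widely among themselves, the JAK inhibitor-treated mice were close together, and the groups did not overlap. The means were 71.7 ± 23.6 and 31.05 ± 1.39 FPKM (SD, n = 3 per group), so the JAK inhibitor mean was 56.7% lower. The difference was -1.13 (SE 0.20, 95% interval -1.60 to -0.67), with an unadjusted limma p of 0.000385 and an adjusted p of 0.0877. By p it ranked 49 of the 11301 genes. The adjusted limma p was 0.0149 without vehicle-treated mouse 2 and 0.0278 without vehicle-treated mouse 3, where the difference was -1.37 and -0.90, and it was at most 0.272 under the alternatives run.

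**Figure D4:**
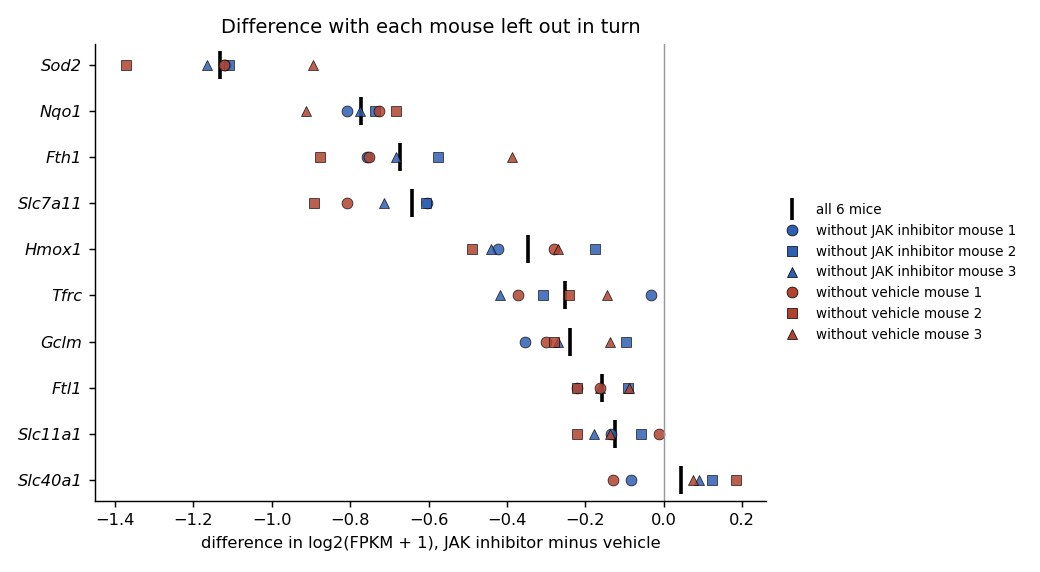
Difference in log2(FPKM + 1), JAK inhibitor minus vehicle, for the 10 genes with all 6 mice (black line) and with each mouse left out in turn (coloured symbols). *Sod2*, *Nqo1* and *Fth1* stay below 0 in all 6 cases, *Fth1* comes closest to 0 without vehicle-treated mouse 3, and *Slc40a1* has estimates on both sides of 0.

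For 7 of the 10 genes the highest value was in vehicle-treated mouse 3, and JAK inhibitor-treated mouse 2 had the lowest value for 7. Over all tested genes, vehicle-treated mouse 3 was the highest for 25.3% and the lowest for 24.7%, more than any other mouse in both directions. JAK inhibitor-treated mouse 2 was the lowest for 17.3% of all tested genes. Of the 10 genes, 9 were lower, with a median difference of -0.30, against a median of -0.0035 over all tested genes. As *Nqo1* and *Slc7a11* reached 1 FPKM only in vehicle-treated mice, the count was repeated for the 8 genes with at least 1 FPKM in every mouse. Of these, 7 were lower, with a median of -0.25, against 4850 of 9601 such genes and a median of -0.0032. Without vehicle-treated mouse 3 the median of the genes still tested was -0.14.

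Of 10 macrophage markers, 9 had lower estimates in JAK inhibitor-treated mice, against 5715 of 11301 tested genes. At an unadjusted p under 0.05, 4 of them were lower, against 9.4% of all tested genes. The summed FPKM of these markers was 713.8 to 870.7 in vehicle-treated and 526.1 to 662.7 in JAK inhibitor-treated mice, without overlap. Taken singly, only 2 of the 10 markers had groups without overlap, both lower, against 12.1% of all tested genes in that direction. *C1qb*, a complement subunit of tissue macrophages, was at 163.4, 176.0 and 93.3 FPKM in vehicle-treated mice and at 61.8, 31.1 and 32.4 FPKM in JAK inhibitor-treated mice. *Cd68*, a lysosomal marker of the macrophage lineage, was at 442.4, 396.5 and 458.3 FPKM and at 427.0, 386.1 and 409.6 FPKM. None of the macrophage markers was at 0 in every mouse. The part of macrophage content in the differences of *Sod2*, *Nqo1* and *Fth1* was not tested. The sum of 10 monocyte markers, most of it *Lyz2*, overlapped between the groups, at 29260 to 38520 and 29720 to 39220 FPKM. Of these 10 markers, 4 were lower and 0 higher at an unadjusted p under 0.05, against 9.4% and 6.57% of all tested genes. The lowest difference was -1.15.

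Short motifs were searched on both strands of the RefSeq promoter windows (GRCm38.p6, 300 bases, 250 of them before the start). Windows were given for 8 of the 10 genes, and *Hmox1* and *Slc40a1* had none. The STAT core TTCNNNGAA, a palindrome, was in 8.3% of 32851 windows and in those of *Sod2*, beginning 185 bases before the start, and *Slc7a11*, beginning 183 bases before it. The RefSeq start of *Sod2* lies downstream of its GENCODE start, so this match falls inside the gene span given above. The core of the antioxidant response element, TGACNNNGC, was in 12.4% of the windows and in that of *Gclm*, on the - strand 134 bases before the start. The AP-1 core TGANTCA (7.81% of windows), whose letters can overlap the antioxidant core, was in none of the members' windows. Neither were a pair of NF-kB cores, GGANTTTCC (1.25% of windows) and a longer form searched first, GGGA and TTCC with any 2 bases between (1.47%). Such matches describe letters and do not show binding. The stretches are shown because STAT factors act downstream of JAK1 and NRF2 acts through the antioxidant element, and capitals mark the match. They lie at chr17:13007644-13007673 (+), chr3:50443777-50443806 (-) and chr3:122245413-122245442 (+), in this order.
Sod2 stretch: tctccagggtTTCCCAGAAgcaggagtaga
Slc7a11 stretch: gtatgctttgTTCTGGGAAatgctttggat
Gclm stretch: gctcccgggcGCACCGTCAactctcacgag

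Other genes of these pathways were taken from lists. Of 82 genes listed, 70 were tested, of which 45 had lower and 25 higher values under the JAK inhibitor, with a median difference of -0.11. None passed an adjusted limma p of 0.05, and at an unadjusted p under 0.05 there were 12 lower and 3 higher genes, to be read against 9.4% lower and 6.57% higher over all tested genes, as are the counts per list.

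Of 13 tested iron transport genes, 3 were lower and 3 higher at an unadjusted p under 0.05. *Lcn2*, which encodes the siderophore-binding protein lipocalin 2, was at 932.8, 698.6 and 1413 FPKM in vehicle-treated mice and at 350.7, 219.7 and 374.5 FPKM in JAK inhibitor-treated mice. All JAK inhibitor-treated mice were below the vehicle-treated mice, and the difference was -1.66 (SE 0.27, limma adjusted p = 0.0665). *Lcn2* is also a gene of neutrophils, and of 9 neutrophil markers 2 were lower and 3 higher at an unadjusted p under 0.05, with differences from -1.06 to 1.64. The shares over all tested genes were 9.4% and 6.57%. *S100a8*, a calprotectin subunit of mature neutrophils, differed by -0.56, and *Mpo*, the myeloperoxidase of neutrophil precursors, by 0.93. The part of neutrophil content in the difference of *Lcn2* was not tested. *Cp*, which encodes the ferroxidase ceruloplasmin, was at 12.4, 10.6 and 9.57 FPKM against 4.08, 6.05 and 3.79 FPKM, with a difference of -1.09 (SE 0.19, limma adjusted p = 0.0778).

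*Hfe*, the hemochromatosis gene, whose protein binds transferrin receptor 1, was higher. It was at 114.7, 87.4 and 62.1 FPKM in vehicle-treated mice and at 154.5, 157.3 and 158.8 FPKM in JAK inhibitor-treated mice, with a difference of 0.87 (SE 0.19, limma adjusted p = 0.109). *Steap3*, which encodes a ferrireductase of the endosome, was at 2.198, 2.85 and 3.51 FPKM and at 4.59, 4.58 and 4.66 FPKM, with a difference of 0.56 (SE 0.18, limma adjusted p = 0.192). For both genes the groups did not overlap. The summed FPKM of 11 erythroid markers was higher in the same mice, at 3.26 to 6.996 in vehicle-treated mice and at 10.1, 7.93 and 66.1 in JAK inhibitor-treated mice 1 to 3. Of the 7 erythroid markers tested, 2 had lower and 5 higher estimates. At an unadjusted p under 0.05, 2 were higher, against 6.57% of all tested genes. The globin gene *Hba-a1*, counted among them, was at 0.064, 0 and 0.057 FPKM and at 2.64, 1.96 and 38.6 FPKM. It reached 1 FPKM only in JAK inhibitor-treated mice, so the filter partly set its direction. The erythroid factor *Klf1* was at 2.24, 2.52 and 0.501 FPKM and at 4.82, 3.93 and 6.98 FPKM. The part of erythroid cells in the values of *Hfe* and *Steap3* was not tested.

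Among 33 tested oxidant defense genes, 7 were lower and 0 higher at an unadjusted p under 0.05, against 9.4% and 6.57% of all tested genes. After quantile normalization 5 were lower and 2 higher. The count of lower genes was 6, 2 and 3 without JAK inhibitor-treated mice 1 to 3 in turn. It was 8, 6 and 9 without vehicle-treated mice 1 to 3 in turn. The count of higher genes was 2 without vehicle-treated mouse 1 and 1 without vehicle-treated mouse 2. *Srxn1*, which encodes sulfiredoxin, the enzyme that restores peroxiredoxins, was at 9.51, 6.10 and 11.5 FPKM in vehicle-treated mice and at 4.07, 2.91 and 4.03 FPKM in JAK inhibitor-treated mice. The groups did not overlap, and the difference was -1.08 (SE 0.23, limma adjusted p = 0.109). *Osgin1*, an oxidative stress-induced growth inhibitor, was at 11.5, 11.4 and 14.1 FPKM against 5.58, 6.01 and 10.6 FPKM, with a difference of -0.71 (SE 0.22, limma adjusted p = 0.181). *Mt1*, which encodes the metal-binding protein metallothionein 1, differed by -0.61 (SE 0.21, limma adjusted p = 0.209), and by -0.35 without vehicle-treated mouse 3. *Prdx6*, which encodes a peroxiredoxin, differed by -0.25 (SE 0.09, limma adjusted p = 0.219). With each of the 6 mice left out, the unadjusted limma p was under 0.05 in 6 fits for *Srxn1* and *Osgin1*, 4 for *Mt1* and 3 for *Prdx6*. *Nfe2l2*, *Mafg* and *Slc3a2* completed the 7 and were named after their values were seen. They encode NRF2, a partner of NRF2 and the partner chain of the *Slc7a11* transporter, and differed by -0.24, -0.29 and -0.31.

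Of 7 tested storage and sensing genes, only *Fbxl5* had an unadjusted p under 0.05. It encodes the iron-sensing ubiquitin ligase subunit that degrades iron regulatory protein 2. *Fbxl5* was at 75.5, 52.9 and 117.1 FPKM in vehicle-treated mice and at 50.3, 47.6 and 53.2 FPKM in JAK inhibitor-treated mice. The groups overlapped slightly, and the difference was -0.62 (SE 0.24, limma adjusted p = 0.254), or -0.32 without vehicle-treated mouse 3. Its unadjusted p was under 0.05 in only 1 of the 6 fits with a mouse left out. None of the 8 tested heme genes had an unadjusted p under 0.05, with differences from -0.38 to 0.14. Of 9 tested oxidant production genes, *Ncf4*, which encodes an NADPH oxidase subunit, was at 405.5, 338.3 and 368.2 FPKM against 338.3, 280.5 and 314.0 FPKM, with a difference of -0.25 (SE 0.10, limma adjusted p = 0.277). The unadjusted limma p of *Ncf4* was under 0.05 in 3 of the 6 fits with a mouse left out.

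**Figure D5:**
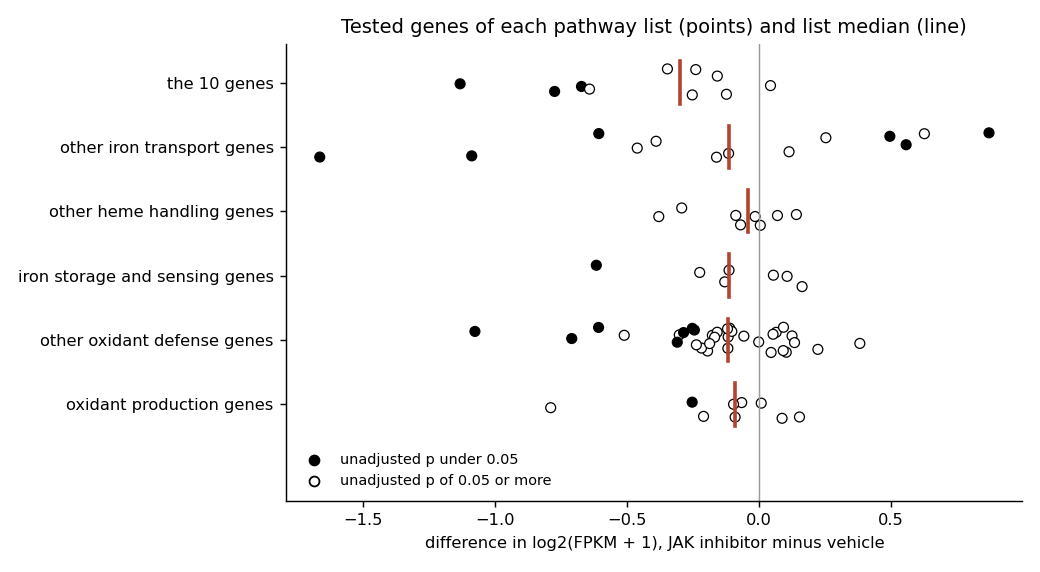
Difference in log2(FPKM + 1), JAK inhibitor minus vehicle, for each tested gene of the 10 and of 5 pathway lists (1 point per gene, vertical position only spreads the points), with a line at each list's median; filled points have an unadjusted p under 0.05. Iron transport genes lie on both sides of 0, from -1.66 to 0.87, and the other oxidant defense genes lie between -1.08 and 0.38.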

How the data were processed

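CX3CR1-EGFP+ osteoclast precursors of 3 JAK inhibitor-treated and 3 vehicle-treated mice were measured by single-end RNA-Seq (75 bases). Per the labels, the authors used TopHat2 2.0.13, Bowtie2 2.2.3, SAMtools 0.1.19 and Cufflinks 2.2.1 on mm10, and they deposited FPKM in 1 table per mouse. The methods name a stranded kit and the labels a SMART-Seq HT kit. Groups were taken from the labels.

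From the deposited FPKM, log2(FPKM + 1) of 11301 genes with at least 1 FPKM in at least 1 mouse was compared with limma 3.58.1 in R 4.3.3 (empirical Bayes trend, with p adjusted by Benjamini-Hochberg over all genes). Ratios had an exact 2-sided permutation test. The model was tested on simulated data. The 10 genes, the lists and the motifs were chosen with earlier results of these data known. From each pathway list, up to 4 genes with the smallest p under 0.05 were named, and from each marker list the 2 most abundant. Positions are from GENCODE M21 (GRCm38), which is the mm10 assembly. Alternatives were pseudocounts, filters, scalings, library weights, a replicate block and each mouse left out.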

Additional observations from a re-analysis of the deposited data

How the results depend on the processing

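With 3 mice per group and unknown depth, small differences of genes with few reads could not be resolved. The number of genes past an adjusted limma p of 0.05 was 15, and it was 2 without a filter, 34 with at least 1 FPKM in 3 mice, 2 without the trend, 63 with library weights and 67 with the replicate block; with each mouse left out it ranged from 3 (without JAK inhibitor-treated mouse 3) to 95 (without vehicle-treated mouse 2), with 94 without vehicle-treated mouse 3. The number of the 10 genes with an unadjusted p under 0.05 was 3, and 2 to 5 with each mouse left out. Under the alternatives, 138 of 148 values of the 10 genes kept their direction and their side of an unadjusted p of 0.05. *Sod2* had an adjusted limma p of 0.0363 with library weights and 0.0436 with the replicate block. Signs turned for *Ftl1* with quantile normalization (0.22), for *Slc40a1* relative to housekeeping genes (-0.028) and with mice left out (-0.13 to 0.18), and for the ratio of *Tfrc* to *Slc40a1* with mice left out (-0.51 to 0.051). *Hmox1* had an unadjusted limma p of 0.00481 with the block and 0.0319 relative to housekeeping genes, and *Fth1* had 0.0522 without a filter. The causes were not tested. Same-numbered mice correlated at -0.00016 to 0.054 in their deviations from the group means, and not every mouse correlated best with its own number. With 3 mice per group these correlations cannot decide whether the numbers pair the mice. The sources used here state no pairing.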
